A study of Mus musculus with 4 samples.

Results

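The 39 Hox genes of the mouse were followed through ATAC-seq peak lists of microglia, which are macrophages that live in the brain. They were all protein-coding genes of the GENCODE M21 annotation (genome build GRCm38) whose symbol is Hox, a cluster letter from a to d and a number, out of 21755 protein-coding genes on the autosomes and chromosome X. HoxA held 11 genes on chromosome 6, HoxB 10 on chromosome 11, HoxC 9 on chromosome 15 and HoxD 9 on chromosome 2. Gene bodies with 5 kb on each side merged into 10 windows of 451685 bp in all. The strict peaks (−log10 q of 2 or more) of all libraries, merged, gave 155546 regions, of which 90 lay in these windows.

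ATAC-seq uses the Tn5 transposase to cut open chromatin, and a local excess of its cuts marks DNA that is not packed away. Untreated C57BL/6 mice aged 3 months, either WT or IRF8KO, gave the sorted microglia, with 2 libraries of each genotype. IRF8, an interferon regulatory factor, is a DNA-binding protein that macrophages and microglia depend on. The labels do not give the knockout allele, whether it was germline or restricted to a cell type, or whether replicates came from separate mice, so the spread between replicates may be technical. WT libraries held 46948938 and 48896408 tags and IRF8KO libraries 78793572 and 66224648, so depth followed genotype, and the tag size was 50 bp in WT and 49 bp in IRF8KO. Of 10 microglial markers, 9 had a strict promoter peak in all 4 libraries. The Irf8 promoter was open in every library, with a normalised pileup (cut sites overlapping at the summit per 1000000 tags of the library) of 2.07 and 1.49 in WT and 0.863 and 1.36 in IRF8KO, which does not check the labels because the deleted part is not stated.

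Hox genes encode homeodomain transcription factors that give cells their position along the head-to-tail axis of the embryo. They lie in 4 clusters in which low-numbered (anterior) genes are used first and toward the head, and high-numbered (posterior) genes later and toward the tail or the limb tips. Where the genes are silent, Polycomb complexes cover the clusters, trithorax proteins keep active genes open, and CTCF with cohesin separates open from silent stretches. Microglia descend from yolk sac progenitors, while bone marrow-derived cells have passed through progenitors in which HoxA genes such as Hoxa9 and Hoxa10 are active.

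The sequences on which the results below turn are matches to a CTCF core motif, matches to an ETS-IRF composite motif (GGAANTGAA, which ETS factors such as PU.1 can bind together with IRF4 or IRF8), and the Hox region that passed the genotype test. All are GRCm38 genome sequence, 5′ to 3′. Among the 90 Hox regions 3 held the CTCF core within 100 bases of the summit, all on the minus strand, and each is shown in 30 bases with the match in capitals.
Hoxd12 side, chr2:74673169-74673198: gccaaacgcCCAGGAGATGGCgagcgtgct
Hoxa7 start, chr6:52221800-52221829: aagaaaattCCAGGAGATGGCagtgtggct
Hoxa10 start, chr6:52240532-52240561: tcgcagccgCCACGAGATGGCgcactcccg

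All 4 matches to the ETS-IRF motif within 100 bases of a Hox summit are shown the same way, the first 2 on the plus strand and the others on the minus strand. The Hoxb7 and Hoxc6 matches lie just past the end of the called region. Each label names the place of the region's summit, and the Hoxb7 match itself lies in the annotated UTR beyond the coding exon.
Hoxd3/Hoxd4 intron, chr2:74724427-74724456: gagctaacagGGAAGTGAAgacctttacag
Hoxb7 coding exon, chr11:96289674-96289703: cccaattatgGGAACTGAAgcatgaaactc
Hoxc10 side, chr15:102963569-102963598: cctcaactcgaGGAAGTGAAaattccgggg
Hoxc6 coding exon, chr15:103009782-103009811: ggcccccggctGGAACTGAAcacgacattc

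The region upstream of Hoxa4 (200 bases around its summit, plus strand) is printed with its 27 CpG dinucleotides in capitals. The window has a GC content of 73.5%, and it lies upstream of the Hoxa4 start, since HoxA genes are transcribed from the minus strand.
Hoxa4 upstream, chr6:52191887-52192086: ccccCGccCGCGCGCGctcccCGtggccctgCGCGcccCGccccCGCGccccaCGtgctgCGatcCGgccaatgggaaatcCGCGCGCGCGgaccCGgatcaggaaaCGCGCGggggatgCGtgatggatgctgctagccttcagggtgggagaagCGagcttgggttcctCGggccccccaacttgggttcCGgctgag

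The Hox clusters held many peaks, and most were low. The height of a peak is the normalised pileup at its best summit. Strict peaks in the Hox windows numbered 57 in both WT libraries and 38 and 46 in the IRF8KO libraries, or 12.6, 12.6, 8.41 and 10.2 per 100 kb. All protein-coding genes with the same 5 kb margins held 6.00, 5.97, 5.10 and 5.76 per 100 kb, and a list of 67 other developmental homeobox genes (Dlx, Lhx, Pax and related families) held 8.36, 8.03, 7.43 and 8.25. In every library the Hox windows were therefore denser in strict peaks than both comparison sets, although in IRF8KO replicate 1 the gap to the homeobox genes was small.

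Their heights lay below the typical peak. The median strict Hox peak stood at 0.298 and 0.266 in WT and 0.203 and 0.249 normalised pileup in IRF8KO. The median of all strict peaks was 0.490, 0.409, 0.317 and 0.423 in the same order. The highest Hox peak of each library reached 0.873, 0.879, 0.546 and 0.861, and 30.7%, 24.9%, 31.8% and 27.9% of all strict peaks of that library were higher. The lowest strict Hox peaks rested on 9, 9, 12 and 11 overlapping cut sites, so single low peaks lie close to what these libraries could detect.

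**Figure D1:**
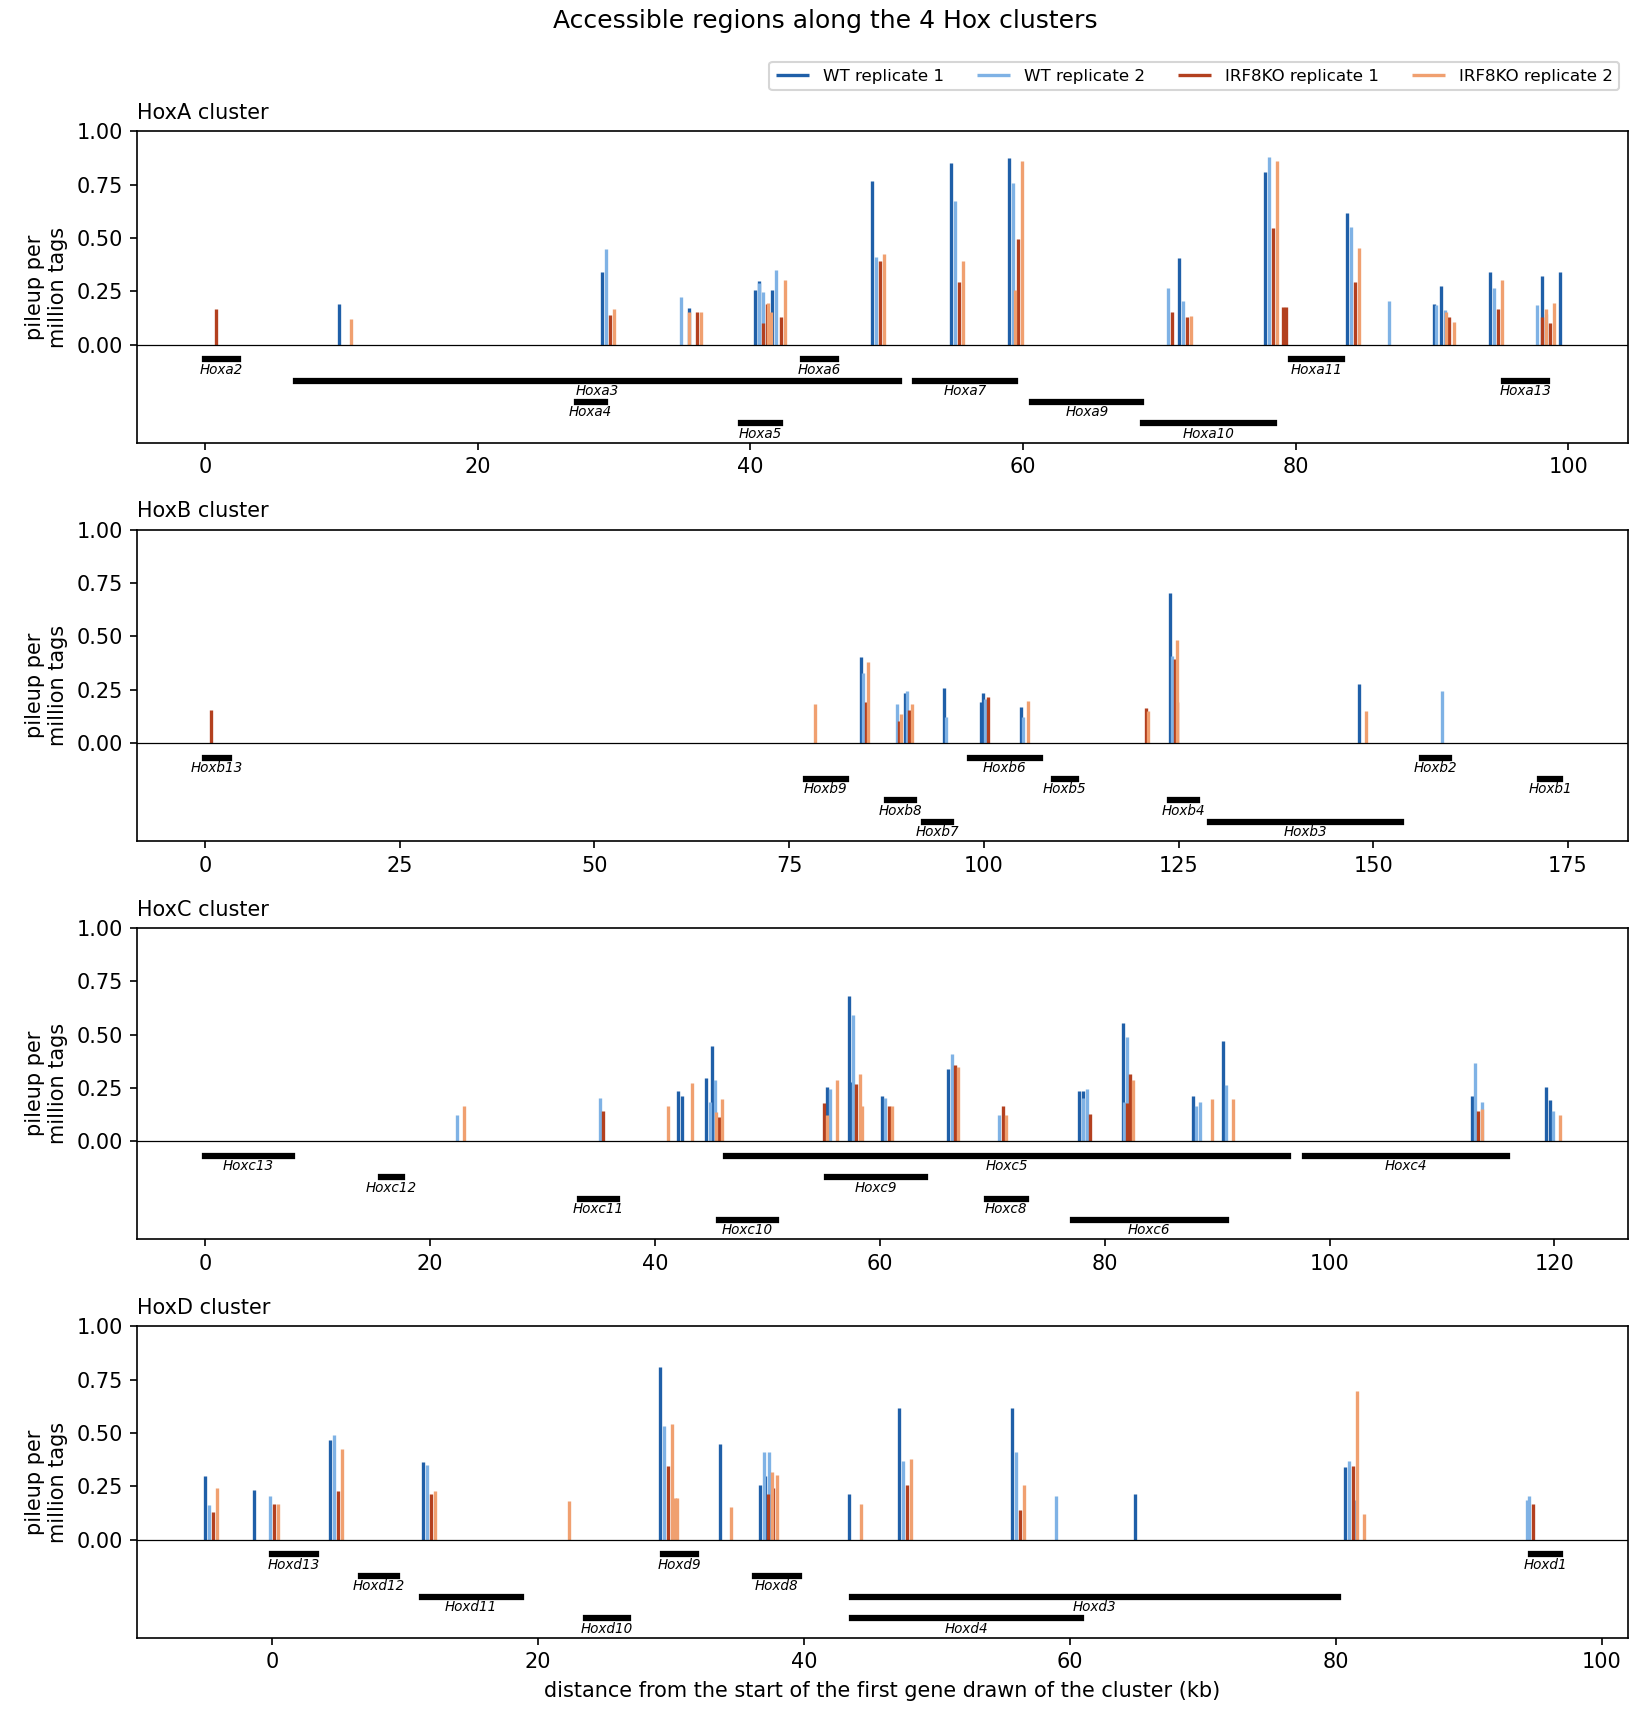
Height of 87 Hox regions (y axis, normalised pileup) against distance from the start of the first gene drawn of its cluster (x axis, kb) for HoxA, HoxB, HoxC and HoxD, with 1 vertical line per library holding a deposited peak, drawn side by side with small offsets, and black bars for gene bodies. No line reaches 0.9, the tallest stand at Hoxa7 and Hoxa10, and most of HoxB between Hoxb13 and Hoxb9 lies outside the windows.

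In every library a smaller share of Hox promoters than of all promoters was open. A strict peak lay within 1 kb of a start site of 17 and 18 of the 39 Hox genes in WT and of 11 and 17 in IRF8KO, or 43.6%, 46.2%, 28.2% and 43.6%. Over all 21646 protein-coding genes with such a start the shares were 61.6%, 62.7%, 60.4% and 61.9%. The median observed to expected CpG ratio at Hox starts was 0.805, against 0.659 over all genes. The median GC was 57.7% in both. A CpG-rich criterion asked for a GC of at least 55% and a CpG ratio of at least 0.65 over 300 bases. It was met by 20 of the 39 Hox promoters and by 9612 of the 21646 promoters of all genes. Of all 9612 promoters that met it, 90.3%, 91.7%, 89.3% and 90.6% had a strict peak, against 55%, 55%, 40% and 65% of the CpG-rich Hox promoters. The 37 CpG-rich promoters of other homeobox genes had shares of 37.8%, 54.1%, 45.9% and 54.1%, which overlap the Hox range. No test was made between the gene sets. The IRF8KO mean of the Hox share, 35.9% ± 10.9 (SD, n = 2), and the WT mean, 44.9% ± 1.81 (SD, n = 2), differed by -8.97 percentage points with overlapping groups (exact permutation p = 0.667, 2-sided; the smallest p that 2 against 2 allows is 0.333). The difference was -1.28 points without IRF8KO replicate 1, -16.7 without IRF8KO replicate 2 and -2.56 where the start itself had to lie in the peak, and counting all deposited peaks turned it to 2.56.

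**Figure D2:**
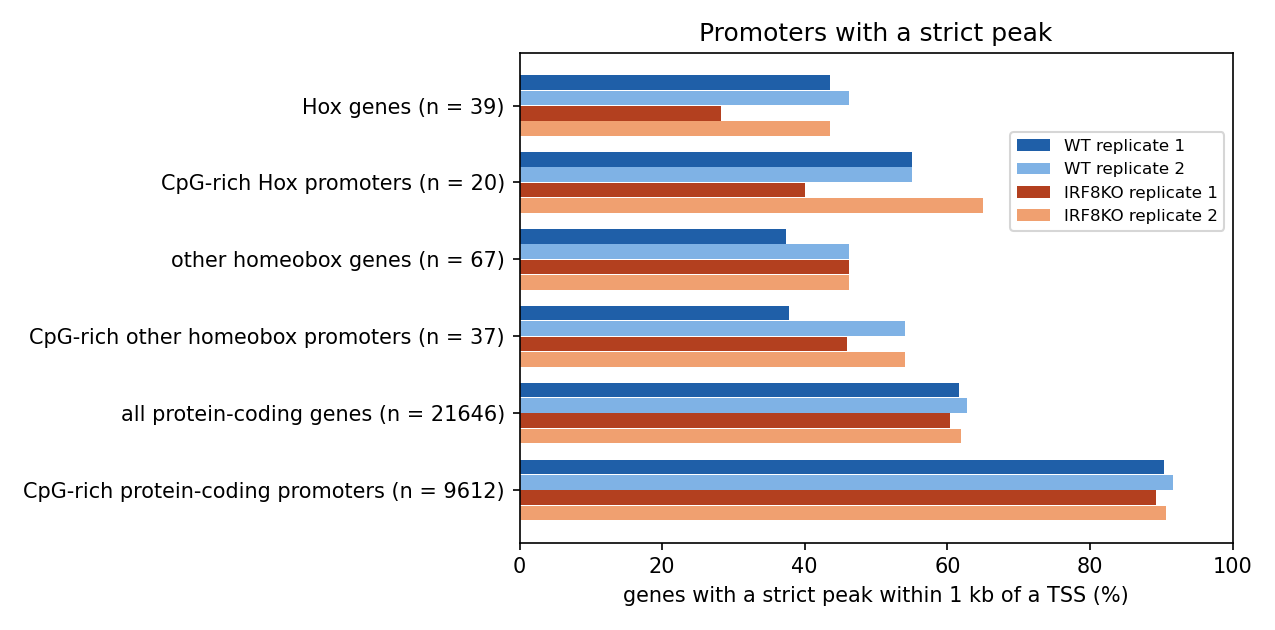
Percentage of genes with a strict peak within 1 kb of a start site (x axis) for 6 gene sets (y axis, number of genes in parentheses), with 1 bar per library. CpG-rich Hox promoters sit between 40% and 65% and CpG-rich promoters of all genes between 89.3% and 91.7%.

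By name, 9 Hox promoters (23.1%) had a strict peak in all 4 libraries, compared with 56.9% of all genes. They were Hoxa5, Hoxa7, Hoxa10 and Hoxa11 in HoxA, Hoxb4 in HoxB, Hoxc9 in HoxC, and Hoxd8, Hoxd9 and Hoxd13 in HoxD. Another 16 had none in any library, and 9 of those lacked even a deposited peak. These 9 were Hoxa2, Hoxa3 and Hoxa6, Hoxb1, Hoxb2 and Hoxb5, and Hoxc8, Hoxc11 and Hoxc12, with none in HoxD. Anterior genes (numbers 1 to 3), which include the hindbrain genes Hoxb1 and Hoxa2, had 0 of 8 promoters strict in all 4 libraries. The central genes (4 to 8) had 4 of 15 and the posterior genes (9 to 13) 5 of 16.

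Hoxa10, which acts in blood progenitors and in the reproductive tract, had the highest promoter by its mean. Its values were 0.809 and 0.879 in WT and 0.546 and 0.861 normalised pileup in IRF8KO. Hoxa7, a gene of trunk patterning, stood at 0.873 and 0.757 against 0.495 and 0.861. For both genes IRF8KO replicate 1 was the low library and replicate 2 lay within or near the WT values, so that the groups overlapped. Even these promoters lay low among the 13026 gene promoters with a peak in all 4 libraries, at percentiles 21.1 and 20.4. The median of those promoters was 1.94, against 0.279 over the 14 Hox promoters with a peak in all 4 and 0.276 over 28 other homeobox genes.

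Below them came Hoxd9 at 0.809 and 0.532 against 0.343 and 0.544, and Hoxb4, a regulator of blood stem cell expansion, at 0.703 and 0.409 against 0.393 and 0.483. Hoxa11, a gene of kidney and forelimb development, had 0.618 and 0.552 in WT and 0.292 and 0.453 in IRF8KO. Hoxa11 did not overlap between genotypes, while Hoxd9 and Hoxb4 did. Hoxd8 followed at 0.298, 0.409, 0.241 and 0.317, and Hoxa5, a gene of lung and cervical patterning, at 0.298, 0.348, 0.190 and 0.302. Hoxc9, which sets thoracic motor neuron identity, stood at 0.256, 0.245, 0.178 and 0.287. These 3 overlapped between genotypes.

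In 4 further promoters of moderate height the WT values were the higher ones or nearly so. Hoxa4 had 0.341 and 0.450 in WT and 0.140 and 0.166 in IRF8KO. Hoxc10, a gene of lumbar patterning, had 0.447 and 0.286 against 0.127 and 0.196, and Hoxc4 had 0.213 and 0.368 against 0.140 and 0.151. Those 3 did not overlap. Of the 14 Hox promoters with a peak in all 4 libraries, both WT values exceeded both IRF8KO values at 5 (Hoxa4, Hoxa11, Hoxc4, Hoxc10 and Hoxd13), against 40.6% of all such promoters, and the reverse held at 0, against 3.84%. Hoxa13, which patterns the digits and the hindgut, had 0.319 and 0.184 against 0.127 and 0.196, with overlap. Outside the 12 highest, and named after their values were seen, 3 promoters had a deposited peak in both libraries of 1 genotype alone. Hoxa9, a gene of blood progenitors and leukaemia, had 0.127 and 0.166 in IRF8KO, and Hoxd12 had 0.127 and 0.121 in IRF8KO. Hoxc13, a gene of hair and nail, had 0.149 and 0.143 in WT. All 3 lie near the lowest height deposited, which is lower in the IRF8KO lists.

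**Figure D3:**
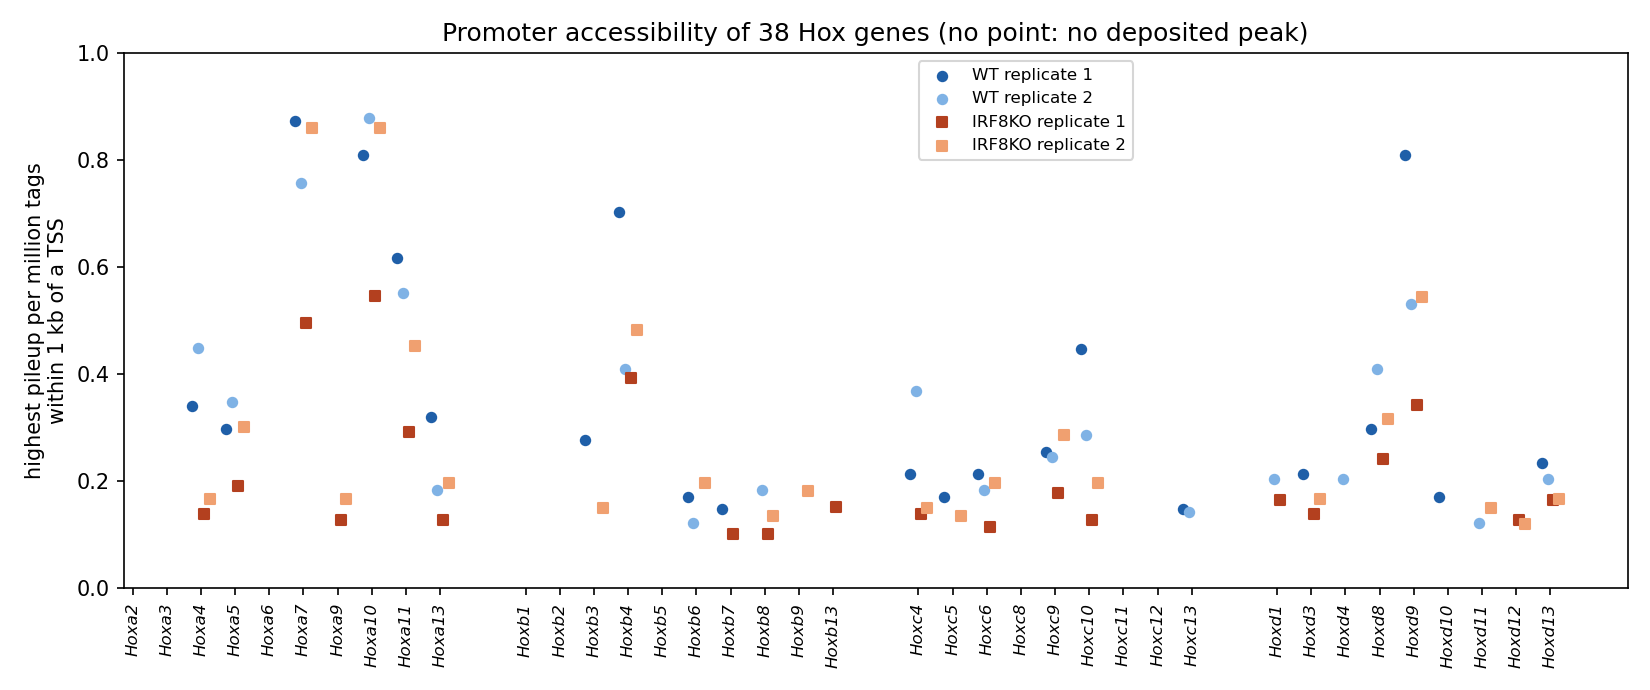
Highest normalised pileup within 1 kb of a start site (y axis) for 38 Hox genes (x axis, by cluster and number), 1 point per library, circles for WT and squares for IRF8KO. Hoxa7 and Hoxa10 reach above 0.85, and 9 genes have no point at all.

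Among the genes that flank the clusters, the nearer ones were mostly closed and the farther ones open. Of the 16 flanking genes (the next 2 on each side of each cluster), 7 lay less than 100 kb away, and 5 of those 7 had no strict promoter peak in any library. They include the homeobox genes Evx2 and Evx1, which lie 8.75 kb from HoxD and 52.6 kb from HoxA. The other 2, Mtx2 and Lnpk beside HoxD, and all 9 genes farther away had a strict peak in all 4 libraries. Means over these 11 ran from 1.09 at Mtx2 to 5.75 normalised pileup at Hnrnpa3, 894 kb from HoxD, and the lowest of them exceeded the highest Hox promoter.

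Summed over the Hox windows, accessibility was lower in both IRF8KO libraries than in both WT libraries. The sums over deposited peaks were 25.9 and 21.3 in WT and 14.9 and 19.8 normalised pileup in IRF8KO (23.6 ± 3.23 and 17.4 ± 3.46, SD, n = 2 each). The groups did not overlap, and the exact permutation p of 0.333 is the smallest this design allows. The difference of -6.23 was -3.78 without IRF8KO replicate 1 and -8.68 without IRF8KO replicate 2. The covered length overlapped between genotypes, at 14144 and 13381 bp in WT and 12765 and 15894 bp in IRF8KO. The mean height per peak was 0.304 and 0.266 against 0.178 and 0.223. As a share of the summed pileup of all peaks in a library, the Hox windows held 0.0242% and 0.0226% in WT and 0.0213% and 0.0201% in IRF8KO, also without overlap.

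The strict peak counts of 57 ± 0 and 42 ± 5.66 (SD, n = 2 each) had the same order and the same exact permutation p of 0.333. Strict peaks over the whole libraries were ordered likewise, at 97473 and 98863 in WT against 83996 and 95921 in IRF8KO. Counting every deposited peak gave 85 and 80 in WT and 84 and 89 in IRF8KO, which overlap and turn the difference from -15 to 4. The lowest deposited height was 0.128 and 0.123 in WT and 0.102 and 0.106 in the deeper IRF8KO libraries, so the deposited lists reach further down in IRF8KO.

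The genotypes separated in HoxC and HoxA. HoxC summed to 6.43 and 5.81 in WT and 3.10 and 4.12 in IRF8KO, a ratio of 0.590, with 16, 16, 7 and 12 strict peaks. HoxA summed to 9.50 and 8.32 against 5.52 and 7.79, a ratio of 0.747. Neither overlapped (exact permutation p = 0.333 for each, 0.667 adjusted over the 4 clusters). HoxB summed to 3.47 and 2.004 against 2.13 and 1.86, and HoxD to 6.48 and 5.17 against 4.16 and 6.04. Both overlapped (exact permutation p = 0.667 for each and after adjustment). Without IRF8KO replicate 1 the HoxD difference changes sign, to 0.215, and that of HoxA goes from -2.26 to -1.12.

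Marker genes of endothelium and oligodendrocytes were ordered like the Hox sums. The summed promoter normalised pileup of 6 endothelial markers was 8.01 and 6.87 in WT and 1.66 and 2.78 in IRF8KO, with none of the 6 at 0 in all libraries. Cdh5 made up most of that difference, at 5.86 and 4.81 against 0.647 and 0.936, and the sums without it were 2.15 and 2.07 against 1.02 and 1.84. That of 6 oligodendrocyte markers was 3.54 and 2.56 against 0.876 and 1.49, with Mag among those at 0 throughout, and 2.04 and 1.64 against 0.647 and 1.15 without its leading gene Cnp. Both lists thus kept the order without their leading gene. The 10 microglial markers summed to 27.3 and 19.6 against 10.9 and 18.1, but overlapped without Sall1. Neuron markers (6) summed to 1.02 and 1.74 against 0.876 and 0.861 and overlapped without Tubb3. B and T cell markers (6) summed to 0.405 and 0.225 against 0.140 and 0, with Cd3e, Cd3g, Cd79a and Lck at 0. Astrocyte markers (6) overlapped, at 1.96 and 1.47 against 1.41 and 2.36, with Aqp4 at 0, but without Aldh1l1 they were ordered like the Hox sums, at 1.55 and 1.27 against 0.558 and 0.831. The sums of 2 lists were higher in IRF8KO, and each overlapped without its leading gene. Monocyte and bone marrow macrophage markers (8) stood at 2.85 and 2.41 against 3.52 and 6.64, with Ccr2 at 0. Without Clec12a they overlapped, at 2.51 and 2.41 against 1.83 and 2.67. Within that list Ms4a7 had 0.128 in WT replicate 1 alone against 0.558 and 0.695 in IRF8KO, while the Vcan promoter had 2.17 and 1.66 against 0.673 and 0.997, with a region called lower (log2 ratio -1.33, SE 0.46, limma adjusted p = 0.0444). Neutrophil markers (8) stood at 0.596 and 0.327 against 1.03 and 1.63, with Ltf, Ngp, S100a9 and Ly6g at 0, and overlapped without Mmp8, at 0.405 and 0.123 against 0.279 and 0.423. Of the regions at the markers, 7 of 32 in the monocyte list (21.9%) and 3 of 19 in the neutrophil list (15.8%) were IRF8KO-specific (a strict peak in both IRF8KO libraries and none deposited in WT), against 3.86% of all regions. WT-specific regions (the reverse) made up 10 of 73 in the astrocyte list (13.7%), 7 of 58 in the endothelial list (12.1%) and 4 of 47 in the oligodendrocyte list (8.51%), against 5.58% of all regions. Of the 22 oligodendrocyte regions with a peak in all 4 libraries, 7 were called lower by limma (31.8%, against 6.82%) and 1 higher. Of 10 such regions in the monocyte list, 2 were called higher (20%, against 2.81%), at Ms4a7 and Clec12a, and 1 lower, at Vcan. In the neutrophil list 2 of 7 were called higher (28.6%), both at Mmp8, and 0 lower. The part of these cells in the Hox values was not tested, and in such bulk samples fewer cells of a type and less open chromatin per cell cannot be told apart.

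Few Hox regions were specific to 1 genotype when both of its libraries had to hold a strict peak. Of the 90 regions, 2 were WT-specific (strict in both WT libraries, with nothing deposited in either IRF8KO library), against 5.58% of all regions, and 1 was IRF8KO-specific, against 3.86%. By the same rule, pairs that join 1 WT with 1 IRF8KO library held between 0 and 3 Hox regions each. Over all regions the crossed pairs held 263 to 1018, against 8673 WT-specific and 6005 IRF8KO-specific regions. Strict peaks in all 4 libraries were found at 20 Hox regions (22.2%, against 31.0% of all regions), and 42 were strict in 1 library alone (46.7%, against 43.1%).

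A WT-specific region, at chr15:102999244-102999368, lay in an intron of Hoxc6 and Hoxc5, with a normalised pileup of 0.234 and 0.205 in WT. The IRF8KO-specific region, at chr2:74698282-74698410, lay in a Hoxd9 coding exon at 0.178 and 0.196. Both are near the detection floor, with 10 to 14 overlapping cut sites, and no Hox region was specific to a genotype at a −log10 q of 5.

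Height was compared at the 31 Hox regions with a deposited peak in all 4 libraries, by limma on log2 normalised pileup over 58550 such regions. In 30 of the 31 the fitted value was lower in IRF8KO, against 71.4% of all regions. Their median log2 ratio (IRF8KO minus WT) was -0.61, against -0.31 over all regions and -0.31 over the 33074 regions no higher than the highest Hox region. Both WT libraries exceeded both IRF8KO libraries at 16 of the 31, against 37.1% of all regions, but 3 of these 16 had a strict peak in no IRF8KO library. Among the 20 Hox regions strict in all 4 libraries the count was 8 (40%), near the 36.7% of all such regions, and the median log2 ratio was -0.45, against -0.30. The reverse order occurred at 0 of the 31, against 11.9%. With every library centred on its own median the Hox median was -0.30 with 27 of 31 below 0. Without IRF8KO replicate 1 it was -0.39, with 29 of 38 regions below 0, and the median of all regions was -0.06.

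**Figure D4:**
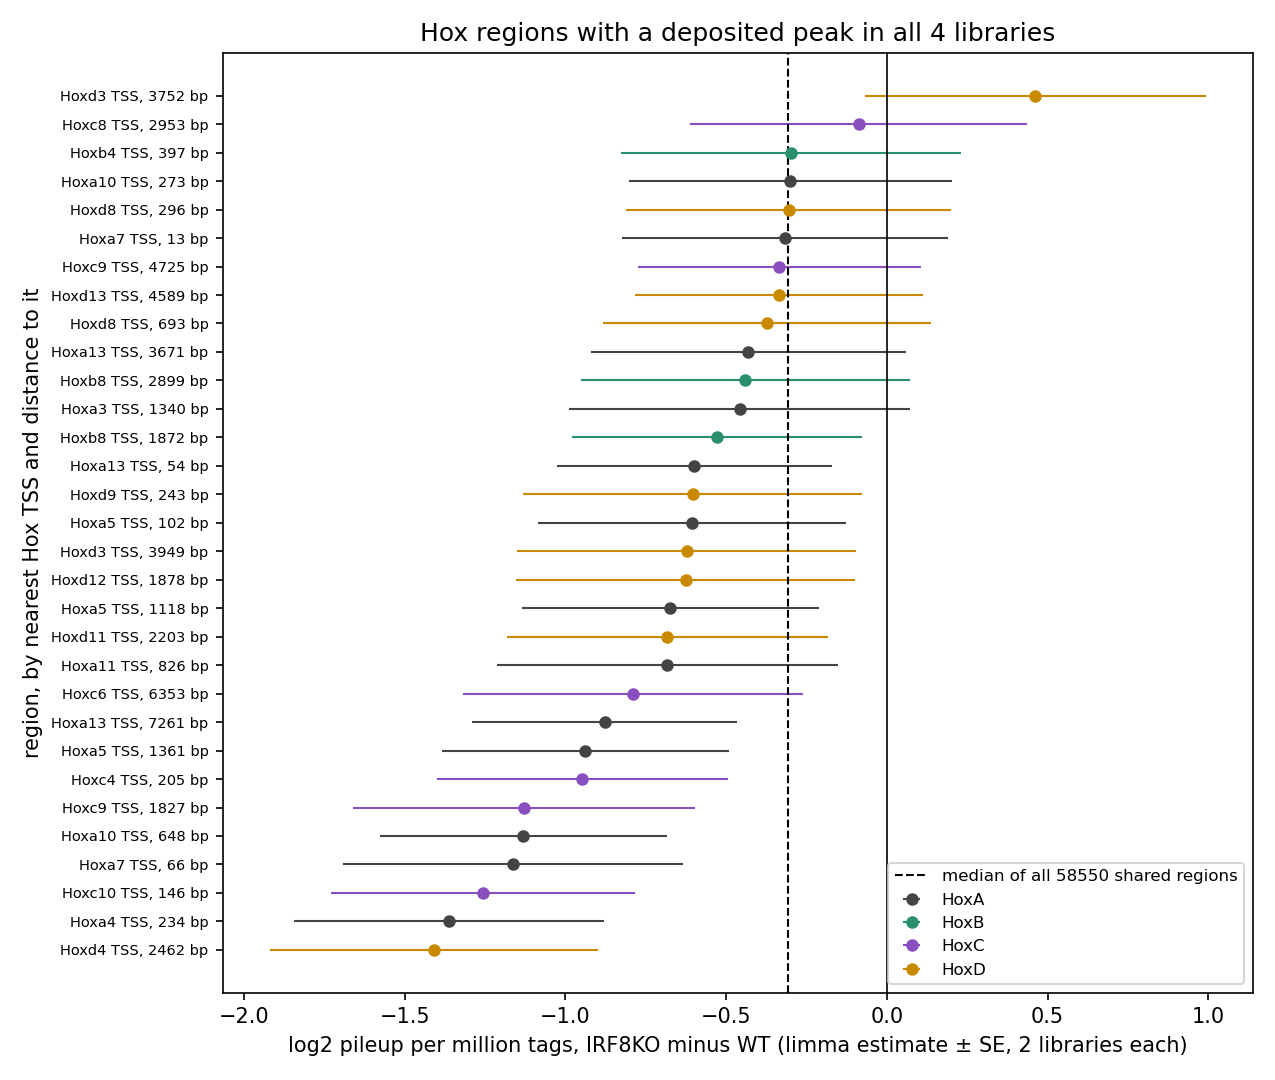
Difference in log2 normalised pileup between IRF8KO and WT (x axis, limma estimate ± SE, 2 libraries per genotype) for the 31 Hox regions with a peak in all 4 libraries (y axis, named by the nearest Hox start site and the distance to it), coloured by cluster, with the median of all shared regions dashed. A single region, beside Hoxd3, lies above 0, and most standard errors are near 0.5.

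A single Hox region passed limma's adjusted p of 0.05, against 6.82% of all regions called lower and 2.81% called higher in IRF8KO. It is the CpG-rich window printed above, at chr6:52191853-52192297, 234 bp upstream of the start of Hoxa4 and inside an intron of long Hoxa3 transcripts. Its height was 0.341 and 0.450 in WT and 0.140 and 0.166 in IRF8KO, or 16, 22, 11 and 11 overlapping cut sites. The groups did not overlap, and the log2 ratio was -1.36 (SE 0.48, limma adjusted p = 0.049). The call was lost without WT replicate 1 (adjusted p = 0.526), without WT replicate 2 (0.664), without IRF8KO replicate 1 (0.0862), with a replicate block (0.274) and with no filter on missing peaks (0.0999). At an unadjusted p under 0.05, 9 of the 31 regions would pass, beside 20.2% of all shared regions.

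Of the 6 highest Hox regions 4 were the promoter peaks of Hoxa10, Hoxa7, Hoxd9 and Hoxb4 described above, with log2 ratios of -0.30, -0.32, -0.60 and -0.30. The limma adjusted p was at least 0.580 for these. At Hoxa10 and Hoxb4 the sign turned when libraries were centred on their medians (0.00447 and 0.00592), and at Hoxa7 and Hoxa10 when IRF8KO replicate 1 was left out (0.0824 and 0.0288). A second Hoxa7 region, at chr6:52217444-52217792 in an intron and 66 bp from an alternative start, stood at 0.852 and 0.675 in WT and 0.292 and 0.393 in IRF8KO, with no overlap (log2 ratio -1.16, SE 0.53, limma adjusted p = 0.169). The last of the 6, at chr6:52211606-52211869 in an intron between the Hoxa5 and Hoxa7 starts, stood at 0.767 and 0.409 against 0.393 and 0.423. The Hoxa7 start thus overlapped between genotypes and the intronic Hoxa7 region did not, and the difference between them was not tested.

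Regions were then chosen after their values were seen. The most negative log2 ratio, -1.41 (SE 0.51, limma adjusted p = 0.0572), belonged to a region at chr2:74724286-74724533 in an intron shared by Hoxd3 and Hoxd4. It stood at 0.618 and 0.409 in WT and 0.140 and 0.257 in IRF8KO, with no overlap. Its summit window holds the ETS-IRF match printed above 1 bp from the summit and, with 0 CpG, is unlike the Hoxa4 window. The single ratio above 0, 0.46 (SE 0.53, limma adjusted p = 0.692), lay at chr2:74749287-74749718 in the non-coding gene Haglr between Hoxd3 and Hoxd1, at 0.341 and 0.368 against 0.343 and 0.695, where IRF8KO replicate 2 alone was high.

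Hox regions were richer in CpG than other regions. Over 200 bases around the summit their median GC content was 58.5%, against 49% of all regions, and the median number of CpG was 11, against 3. By position 30 lay in introns, 24 between genes, 16 in coding exons, 10 in non-coding genes alone, 9 in UTRs and 1 in another exon. Of the 9 in UTRs 5 were strict in all 4 libraries, and of the 30 in introns 7 were.

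The CTCF core, searched on both strands as for every motif here, was found in 3 of 90 Hox regions (3.33%, against 4.68% of all regions), and all 3 were strict in every library. That is 3 of the 20 Hox regions strict in all 4 libraries (15%, against 7.78% of all such regions) and 0 of the other 70. They lie at the starts of Hoxa7 and Hoxa10, the 2 highest Hox promoters, and 1878 bp from the Hoxd12 start, where the WT values were 0.469 and 0.491 and the IRF8KO values 0.228 and 0.423.

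The ETS-IRF motif was found around the summits of 4 Hox regions (4.44%, against 3.91% of all regions), and none of the 4 was strict in every library. Besides the Hoxd3/Hoxd4 intron, the Hoxb7 exon region stood at 0.256 and 0.123 in WT with no deposited peak in IRF8KO. The Hoxc10 side region had a peak in WT replicate 1 alone, at 0.234, and the Hoxc6 exon region in WT replicate 2 alone, at 0.184. These last 3 regions entered the set through a strict peak in a single WT library, so their order between genotypes is no result.

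Of the other motifs of macrophage factors, the PU.1 motif AGAGGAAG was found in 8 Hox regions (8.89%, against 9.01%) and the CEBP motif TTGCNNAA in 8 (8.89%, against 9.50%). The AP-1 motif TGANTCA was found in 2 (2.22%, against 8.10%). Of the motifs of HOX proteins and their partners, the PBX-HOX motif TGATTNAT was found in 0 of 90 (against 1.91% of all regions) and the MEIS motif TGACAG in 7 (7.78%, against 16.4%). The lower MEIS share did not hold at regions strict in all 4 libraries, with 4 of 20 Hox regions (20%, against 15.9% of all such regions). Of the other 70 Hox regions 3 held it (4.29%).

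The microRNA genes inside the clusters had little signal within 1 kb. Mir10b and Mir196a-2 had no deposited peak. Mir10a, beside Hoxb4, had a peak in WT replicate 1 alone, at 0.170. Mir196b, inside the annotated span of Hoxa9, had peaks of 0.102 and 0.121 in the IRF8KO libraries alone, and Mir615, in the Hoxc5 intron, of 0.127 and 0.136 in IRF8KO alone. All lie near the lowest height deposited, which is lower in the IRF8KO lists.

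In contrast to the Hox genes, the genes that act with or on them were mostly open. A strict promoter peak in all 4 libraries was found at 9 of 9 TALE homeodomain partners (Pbx, Meis and Pknox genes), 15 of 15 Polycomb genes, 7 of 8 trithorax and histone demethylase genes and 6 of 6 CTCF, cohesin and MAZ genes. Over all protein-coding genes the share was 56.9%. Of 10 retinoic acid receptor and other upstream regulators 7 had such a peak. The exceptions were Kdm6b and the caudal genes Cdx1, Cdx2 and Cdx4, which switch on posterior Hox genes in the embryo.

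Genotype-specific and called regions at these genes were counted as for Hox, beside the shares of 5.58%, 3.86%, 6.82% and 2.81% of all regions given above. At TALE genes 10 of 125 regions were WT-specific and 3 IRF8KO-specific, and limma called 1 lower and 0 higher of 35. At Pbx3 2 regions were found in WT alone and 1 in IRF8KO alone. Polycomb genes had 6 and 3 of 126 specific regions and 4 lower and 2 higher of 64, with a Phc2 region at 0.980 and 0.716 against 0.102 and 0.136 and an Eed region in the other direction, at 0.149 and 0.205 against 0.850 and 1.72.

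Trithorax and demethylase genes had 1 and 2 specific regions of 57, and 2 lower and 0 higher of 29, both at Kdm6a, an X-linked H3K27 demethylase. The CTCF and cohesin list had 4 and 2 of 55, and 1 lower and 0 higher of 26, at the cohesin loader Nipbl. Retinoic acid and caudal genes had 4 and 6 of 128, and 2 lower and 2 higher of 59, with 1 of each at both Rara and Rarb. The higher region at Rara, a retinoic acid receptor, stood at 0.341 and 0.205 in WT and 1.79 and 2.28 in IRF8KO (log2 ratio 2.94, SE 0.51, limma adjusted p = 9.2e-07), and the Rarb promoter at 0.405 and 0.552 against 1.28 and 1.69 (log2 ratio 1.64, SE 0.49, limma adjusted p = 0.0143).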

How the data were processed

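Members and lists were chosen with earlier results of these data known. Per the submitters' processing notes, reads were handled with bcl2fastq, Bowtie2, MACS2 2.1.1.20160309 and deepTools on mm10. Per the file headers, each library had its peaks called alone, with no control and a p threshold of 0.01, with cut sites shifted by -37 bp and extended to 73 bp and a local background of 10 kb. The deposited pileup is an unscaled signal, the deposited fold enrichment a ratio to local background (not used), and the deposited p and q are −log10 values. By the headers no q was computed, yet the q column holds values, and it was used as it stands. Scores of single peaks come from the authors.

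Each peak kept its best summit. Normalised pileup is the pileup per 1000000 tags of the header, which assumes that pileup scales with tags. Peaks with −log10 q of at least 2 were merged across the 4 libraries (1 bp of overlap). Regions with a deposited peak in all 4 were fitted with limma 3.58.1 (log2 normalised pileup, eBayes with trend, Benjamini-Hochberg adjustment over all of them), checked on simulated data. Requiring a peak in all 4 leaves out regions lost in 1 genotype. Single values per library were compared by 2-sided exact permutation tests. Values were given for the 12 highest Hox promoters, the 6 highest Hox regions, genotype-specific and called regions, and Hox genes without a promoter peak. GC, CpG and sequences come from the GRCm38 genome, with start sites from GENCODE M21. Alternatives covered the strict threshold, the window margin, scaling, filters, the fit and each library left out. Results for some single genes are not reported here, though they enter counts and sums.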

Additional observations from a re-analysis of the deposited data

How the results depend on the processing

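The differences between IRF8KO and WT in summed Hox pileup, and in its HoxA, HoxB and HoxC parts, kept their direction under every alternative run, but HoxB went from -0.74 to -0.0095 without WT replicate 1 and HoxA from -2.26 to -1.12 without IRF8KO replicate 1. That of HoxD turned to 2.61 when pileup was taken per 1000000 of the summed pileup of all peaks of the library and to 0.215 without IRF8KO replicate 1 (-1.66 to 0.215 over the libraries left out). With all deposited peaks the difference in peak number turned to 4 and that in open promoters to 2.56 points. WT-specific and IRF8KO-specific regions numbered 0 and 0 at a −log10 q of 5, and 0 and 0 at an equal normalised pileup of 0.3, and 4 to 10 and 1 to 7 over the libraries left out. Hox regions called lower numbered 3 with centred libraries, 0 with a strict peak required in all 4, 2 with no filter, 3 without the trend, 0 with a replicate block, and 0 to 6 over the libraries left out (6 without IRF8KO replicate 2). Over all regions, calls numbered 5637 (70.9% lower), 15114 with centred libraries (48.3% lower), 20407 with no filter, 7608 without the trend, 3886 with the strict filter, 1202 with the replicate block, and 283, 513, 8566 and 14550 without WT replicates 1 and 2 and IRF8KO replicates 1 and 2. Log2 ratios turned at Hoxa10 (0.00447 centred, -0.63 to 0.0288 over the libraries left out, the latter without IRF8KO replicate 1), Hoxa7 (-0.72 to 0.0824, the latter without IRF8KO replicate 1) and Hoxb4 (0.00592 centred, -0.69 to 0.0922 over the libraries left out, the latter without WT replicate 1). The second Hoxa7 region passed with centred libraries (adjusted p = 0.0293) and without IRF8KO replicate 2 (0.016). The cause was not tested. Deviations of same-numbered libraries from their group means correlated at 0.00438 over regions. This value ignores a shift common to all regions, so it cannot decide whether the replicate numbers mark a pairing, and the labels do not say. With 2 libraries per genotype no exact test can fall below 0.333, and peaks near 10 cut sites are at the limit of these depths.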
